A study of Mus musculus with 2 samples.

Results

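Nuclei with excess open chromatin at 9 myelin loci made up 530 of the 10329 mouse brain nuclei that passed the quality filter, 291 of 5949 in sham and 239 of 4380 in stroke. They were taken as oligodendrocytes by the rule, and genes outside it, described below, went with that name for some of them only. They are therefore called myelin-gated nuclei here. Fragments were counted over the gene bodies and 2 kb upstream of Mbp, Mobp, Mag, Mog, Cnp, Opalin, Ermn, Cldn11 and Aspa in each nucleus. A nucleus was kept if it had at least 5 such fragments and lay at least 3 square roots of the expected number above that number, the expectation being its own fragments times the rate over all filtered nuclei of both libraries (2.60 per 10000 fragments). The filter kept barcodes called as cells with 1000 to 100000 fragments in peaks, over 20% of their fragments.

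The nuclei came from wild-type C57BL/6J male mice aged 8 to 12 weeks, without any transgene. The stroke group had a filament occluding the middle cerebral artery for 1 h, then reperfusion (MCAO/R), and the sham group had the filament inserted without sustained occlusion. Brains were frozen 48 h after surgery. The stroke library pooled the ipsilateral hemispheres of 4 mice and the sham library the brains of 4 mice, so each condition was 1 library, individual animals could not be told apart, and stroke cannot be told apart from library or from hemisphere. No comparison had a replicate, and no test of a difference between conditions was possible. In scATAC-seq the Tn5 transposase cuts open chromatin, and levels here are fragments over a gene body and 2 kb upstream per 1000000 fragments of the same nuclei (CPM). Intervals are exact 95% intervals, which cover counting error only. The libraries held 76959104 fragments in sham and 96465679 in stroke, and 34 of the filtered barcodes occurred in both, none of them myelin-gated.

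Oligodendrocytes wrap axons of the central nervous system in myelin, a compacted membrane rich in lipids and in a small set of proteins that includes myelin basic protein. They arise from Pdgfra-expressing precursors through a newly formed stage marked by Gpr17, under factors such as Olig2, Sox10 and Myrf. White matter and striatum are among the tissues that an occlusion of the middle cerebral artery can injure, and oligodendrocytes in injured or inflamed tissue are known to switch on genes such as Serpina3n and C4b.

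The chromatin outside the myelin loci that stood out in these nuclei is shown first, since the gate did not use it. Bins of 500 bp were taken where the sham myelin-gated nuclei had at least 10 cut sites and at least 4 times the rate of the other sham nuclei, and were then read in stroke, which took no part in that choice. The first 6 sequences lie at start sites of listed oligodendrocyte genes, being the ones outside untranslated exons, and the last 5 are the bins ranked highest in sham by the lower bound of their ratio. Each sequence is 200 bases of the + strand of GRCm38 (mm10), centred on the median cut site, with matches to 5 short words in capitals. These were SOX (ACAATG or ACAAAG), OLIG E-box (CAGCTG or CATATG), MYRF (CTGGCAC), AP-1 (TGANTCA) and TEAD (GGAATG), searched on both strands, and none of the words contains another. Sites of NF1 and MEF2 were searched too and had no match in these sequences.
Bcas1 start, chr2:170406583-170406782: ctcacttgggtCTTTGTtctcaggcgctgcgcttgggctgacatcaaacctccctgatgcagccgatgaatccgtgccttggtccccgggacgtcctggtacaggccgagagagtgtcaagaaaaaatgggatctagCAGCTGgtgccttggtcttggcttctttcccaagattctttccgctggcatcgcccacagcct
Hapln2 start, chr3:88027580-88027779: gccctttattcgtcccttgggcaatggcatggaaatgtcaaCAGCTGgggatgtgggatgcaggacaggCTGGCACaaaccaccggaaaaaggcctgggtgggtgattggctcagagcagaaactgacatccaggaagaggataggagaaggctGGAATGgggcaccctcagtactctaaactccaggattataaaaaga
Sox10 start, chr15:79164551-79164750: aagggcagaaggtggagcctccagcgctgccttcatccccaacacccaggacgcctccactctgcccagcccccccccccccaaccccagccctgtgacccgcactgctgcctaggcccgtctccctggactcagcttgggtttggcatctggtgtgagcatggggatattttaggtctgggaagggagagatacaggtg
Myrf start, chr19:10217134-10217333: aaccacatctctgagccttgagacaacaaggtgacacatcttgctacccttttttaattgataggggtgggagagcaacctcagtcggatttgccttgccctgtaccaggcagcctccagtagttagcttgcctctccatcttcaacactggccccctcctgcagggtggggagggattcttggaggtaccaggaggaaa
S1pr5 start, chr9:21248492-21248691: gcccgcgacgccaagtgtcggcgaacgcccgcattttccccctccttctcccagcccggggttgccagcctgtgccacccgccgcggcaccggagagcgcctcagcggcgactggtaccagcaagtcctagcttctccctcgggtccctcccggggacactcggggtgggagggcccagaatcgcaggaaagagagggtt
Sept4 start, chr11:87582628-87582827: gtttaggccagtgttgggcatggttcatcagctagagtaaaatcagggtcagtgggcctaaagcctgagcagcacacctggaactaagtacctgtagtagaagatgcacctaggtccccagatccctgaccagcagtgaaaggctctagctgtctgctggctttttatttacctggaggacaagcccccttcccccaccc
Npsr1 intron, chr9:24160642-24160841: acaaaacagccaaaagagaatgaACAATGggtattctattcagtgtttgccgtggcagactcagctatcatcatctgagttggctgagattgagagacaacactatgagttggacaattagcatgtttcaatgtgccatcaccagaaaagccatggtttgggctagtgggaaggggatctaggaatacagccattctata
Intergenic on chromosome 4, chr4:105937274-105937473: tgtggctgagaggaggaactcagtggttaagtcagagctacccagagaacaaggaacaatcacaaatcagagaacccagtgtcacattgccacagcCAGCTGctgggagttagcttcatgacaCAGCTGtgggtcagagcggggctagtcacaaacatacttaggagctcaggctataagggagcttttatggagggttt
Intergenic on chromosome 16, first, chr16:4242691-4242890: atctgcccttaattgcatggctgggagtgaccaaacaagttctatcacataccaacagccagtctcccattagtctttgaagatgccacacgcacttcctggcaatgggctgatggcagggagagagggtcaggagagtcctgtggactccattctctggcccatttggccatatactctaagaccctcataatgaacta
Intergenic on chromosome 16, second, chr16:69459560-69459759: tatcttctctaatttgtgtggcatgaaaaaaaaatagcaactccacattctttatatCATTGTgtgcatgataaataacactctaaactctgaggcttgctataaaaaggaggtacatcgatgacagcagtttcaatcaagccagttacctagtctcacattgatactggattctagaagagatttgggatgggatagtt
Tmem237 start, chr1:59113649-59113848: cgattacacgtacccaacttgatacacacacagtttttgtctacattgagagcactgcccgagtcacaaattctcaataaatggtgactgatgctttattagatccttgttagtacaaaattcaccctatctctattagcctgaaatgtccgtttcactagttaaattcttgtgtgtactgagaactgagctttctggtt

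Of these 11 bins, 7 were at least 2-fold over other nuclei in stroke too, and 3 of the 5 ranked highest in sham held no stroke cut site. The Bcas1 bin, at a gene expressed as oligodendrocytes start to myelinate, held 36 cut sites from 13 sham nuclei and 33 from 16 stroke nuclei, 6.80-fold (4.50 to 10.1) and 5.18-fold (3.4 to 7.71) over other nuclei. The bin at Hapln2, which encodes a link protein of the matrix at nodes of Ranvier, was 5.84-fold (2.78 to 11.4) over other nuclei in sham and 9.95-fold (5.82 to 16.7) in stroke. The Sox10 bin stood at 4.85-fold (2.25 to 9.58) and 4.17-fold (1.86 to 8.47). These start sites were open over other nuclei in each library, as was that of Myrf, the regulator of myelin genes, at 4.34-fold (2.49 to 7.22) and 4.40-fold (1.86 to 9.34). The S1pr5 bin, at a sphingosine phosphate receptor of oligodendrocytes, was 5.36-fold (3.09 to 8.93) and 4.93-fold (2.79 to 8.31). The Sept4 bin, at a septin of the cytoskeleton, was 5.07-fold (2.78 to 8.79) in sham and 1.82-fold (0.565 to 4.56) in stroke, where it held 5 cut sites. The Npsr1 bin had a ratio of 39.3 in sham and 8.11 (3.23 to 18.8) in stroke, and the intergenic bin on chromosome 4, 143032 bp from the nearest start site, had 45.2 and 3.04 (1.44 to 5.82). The first and second bins on chromosome 16 (28754 and 400735 bp from their nearest start sites, Crebbp and Speer2) and the Tmem237 bin rested on 6, 3 and 2 sham nuclei, had sham ratios of 86.3, 61.7 and 37.0, and were the ones with no stroke cut site. The sham ratios of all 11 bins took part in their choice. Intervals of bins count both ends of a fragment as separate cut sites, so they are too narrow.

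Start sites of 7 further genes met the same rule, with no sequence shown. Mal, which encodes a proteolipid of myelin, was 9.46-fold (5.46 to 16) over other nuclei in sham and 4.17-fold (2.42 to 6.87) in stroke. Nkx6-2, a homeodomain factor of oligodendrocytes, was 5.40-fold (3.35 to 8.45) and 3.08-fold (1.75 to 5.12). Nfasc, whose product holds myelin and axon together at the node, was 4.25-fold (2.48 to 6.98) and 4.53-fold (2.73 to 7.23), Cntn2 was 4.51-fold and 3.87-fold, and Gsn was 5.00-fold and 3.0-fold. For these 5 genes the stroke intervals, which took no part in the choice, excluded 1 when both ends of a fragment were counted as separate cut sites. Whether they would over fragments was not tested. The Gsn bin held 7 stroke cut sites from 4 nuclei with at most 1 fragment each. The Gpr17 bin on chromosome 18 was 7.23-fold (4.36 to 11.6) and 3.46-fold (1.96 to 5.79), and the Tmem125 bin was 5.17-fold in sham and 1.62-fold (0.629 to 3.51) in stroke.

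Most bins picked in sham did not reach 2-fold in stroke. Of 6182 bins, 1787 (28.9%, 27.8% to 30.1%) were at least 2-fold over other nuclei in stroke, and the median stroke ratio was 1.07. The share went with the number of sham nuclei behind a bin. It was 22.1% for the 634 bins with cut sites from 1 to 3 sham nuclei, 25.8% for 4280 bins from 4 to 6, 38.1% for 1068 bins from 7 to 9 and 67.0% (134 of 200) for the bins from 10 or more nuclei, whose median stroke ratio was 3.6. A SOX word occurred in 55.1% of the 6182 bins, beside 43.7% of all 119371 bins with 10 cut sites in the sham myelin-gated nuclei. An OLIG E-box occurred in 36.9% beside 36.5%, MYRF in 8.98% beside 11%, TEAD in 25.8% beside 24.3% and AP-1 in 14.8% beside 16.4%. In the 200 bins from 10 or more nuclei, a subset set after the data had been seen, SOX stood at 70.0%, the OLIG E-box at 51.0%, MYRF at 13.0%, TEAD at 26.5% and AP-1 at 13.0%. The 200 bins comprised 27 at start sites, 19 in exons, 76 in introns and 78 between genes. Base composition was not matched between these sets, and a word in a bin is no evidence of binding.

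**Figure D1:**
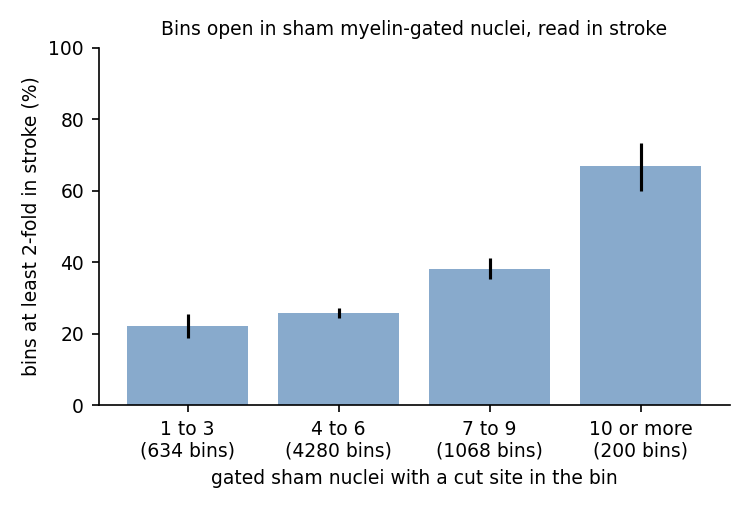
Bars give the percent of 500 bp bins, open in sham myelin-gated nuclei, that were at least 2-fold over other nuclei in stroke, by the number of sham nuclei with a cut site in the bin (x axis), with exact 95% binomial intervals. The share is 22.1% for bins from 1 to 3 nuclei and 67.0% for bins from 10 or more.

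Myelin-gated nuclei were 4.89% (4.36% to 5.47%) of sham and 5.46% (4.80% to 6.17%) of stroke nuclei, a ratio of 1.12 (0.936 to 1.33) whose interval includes 1. Over every called barcode, with no quality filter, the order turned, with 5.19% in sham (362 of 6979) and 3.66% in stroke (320 of 8740). The expected rate was then taken over all called barcodes. Those outside the filter had a median of 32.9% of fragments in peaks in sham and 9.15% in stroke. Myelin-gated nuclei of the filtered set had a median of 12 marker fragments in either library, against an expected median of 3.22 in sham and 3.07 in stroke. The lowest kept nucleus had 5 marker fragments in each library and the highest 66 in sham and 58 in stroke. Just inside the threshold, at 3 to 3.5 square roots, lay 55 sham and 38 stroke nuclei with a median of 9 marker fragments. Just outside, at 2.5 to 3, lay 77 and 74 nuclei with medians of 8 and 9, so the threshold cut through a continuous range. Depth was similar in and out of the gate, with medians of 12418 against 11496 fragments in sham and 11829 against 11210 in stroke. Among called barcodes outside the filter, 15 of 1030 in sham and 23 of 4360 in stroke met the same measure at the rate of the filtered nuclei.

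The levels of the 9 loci chose the nuclei and are a description only. Mbp (chr18:82475146-82585637), which encodes myelin basic protein and is the longest locus, stood at 763.7 CPM in sham and 676.8 in stroke, against 141.1 and 140.3 in other nuclei, and it supplied 71.9% and 61.6% of all marker fragments. Mobp, another basic myelin protein, stood at 83.7 and 149.3 CPM against 15.7 and 16.7. Cnp, a phosphodiesterase of myelin, stood at 82.1 and 94.5 CPM against 22.1 and 23.4. All 9 loci were above other nuclei in both libraries, as the rule requires of their sum, with the lowest ratio in sham at Aspa, the enzyme that splits N-acetylaspartate (4.05 against 2.86 CPM), and in stroke at Mog, a glycoprotein of the outer myelin surface (35.5 against 11.6 CPM). Single nuclei carried few of them. Mbp had a fragment in 97.6% and 97.9% of the gated nuclei, Mobp in 30.6% and 49.8%, the tight junction gene Cldn11 in 13.7% and 29.7%, and Mag, an adhesion molecule facing the axon, in 13.1% and 24.7%. In other nuclei Mbp had a fragment in 66.6% of sham and 65.0% of stroke nuclei.

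**Figure D2:**
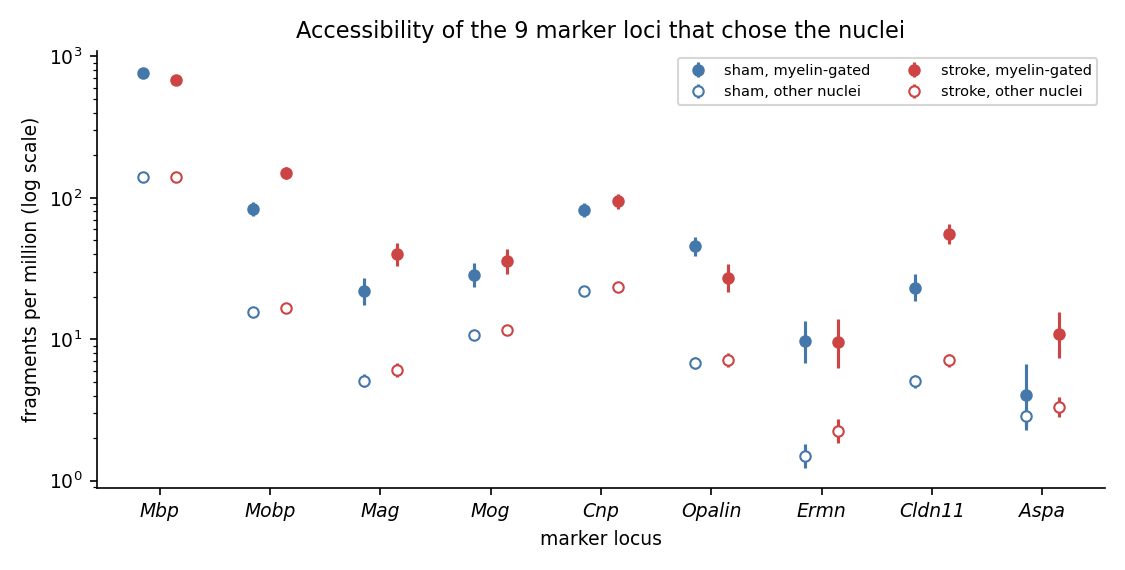
CPM (log scale) over each of the 9 marker loci (x axis) in myelin-gated (filled) and other nuclei (open) of the sham (blue) and stroke (red) library, with exact 95% Poisson intervals. Mbp stands highest, at 763.7 and 676.8 in gated nuclei, and these loci were selected on for the gate.

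Oligodendrocyte genes that the gate did not use stood closer to the level of other nuclei. A gene was counted if its ratio over other nuclei of the same library was at least 2 in both libraries with at least 10 fragments in each, which 13 of all 16400 genes met (0.0793%). Of the listed myelin and oligodendrocyte genes, 4 of 39 met it, of the lineage factors 2 of 16, of the genes of committed and newly formed oligodendrocytes 1 of 11, and of the precursor genes 0 of 12. Mal was 2.13-fold and 2.72-fold, Ugt8a, the enzyme that makes galactosylceramide, was 2.1-fold and 2.27-fold, and Tmem125, a membrane protein, was 2.00-fold and 2.32-fold. In stroke 22 of 99 Ugt8a fragments came from 1 nucleus, and whether Ugt8a would be counted without it was not tested. Sox10 (chr15:79154908-79165240), the factor needed through the whole lineage, was 2.64-fold (2.11 to 3.28) and 2.56-fold (2.00 to 3.25), and Zfp488, a zinc finger partner of Olig2, was 2.05-fold and 2.72-fold. Gpr17 (chr18:31942997-31949636), the receptor of newly formed oligodendrocytes, was 4.83-fold (3.49 to 6.59) and 3.54-fold (2.49 to 4.93). The list medians were lower than these examples, 1.23 in sham and 1.54 in stroke for the myelin list and 1.27 and 1.51 for the factors, beside 0.999 and 1.02 for all genes. At the low end of the myelin list were Il33 (0.634 and 1.03), Gpr37 (0.838 and 2.29), the septin-binding scaffold Anln (0.937 and 1.38) and the connexin Gjb1 (1.31 and 0.924). Low among the factors were Hes5 (0.649 and 1.18), active before the myelinating stage, and Sox5 (0.896 and 0.953), a factor of precursors. Nuclei past the measure of the gate on precursor markers are called precursor-gated. They had Zfp488 at 8.40 CPM in sham and 16.8 in stroke, beside 8.37 and 17.6 in myelin-gated nuclei. They had Gpr17 at 8.78 and 17.7, below myelin-gated nuclei in sham and above their 15.1 in stroke. Sox10, Mal, Ugt8a and Tmem125 were lower in precursor-gated nuclei in both libraries. Whether the factors as a list separate myelin-gated from precursor-gated nuclei was not tested.

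Among the 10 genes ranked highest over other nuclei, 5 were listed oligodendrocyte genes, among them Gpr17, Sox10, Ugt8a and Fa2h, which hydroxylates myelin lipids (1.76-fold and 1.96-fold). Lims2 (2.63-fold and 2.5-fold) contains Gpr17 within its span, and reads there cannot be assigned to either gene. It stood at 37.5 and 43.9 CPM in myelin-gated and at 38.4 and 41.4 in precursor-gated nuclei. Zfp236 (chr18:82593593-82692883, 1.91-fold and 1.97-fold) lies next to the marker Mbp, in the flank described below, and stood at 169.9 and 198.3 CPM with 1 marker locus against 104.8 and 93.5 with 4 or more. The rest were Cyp2j12 (2.33-fold and 2.29-fold), Rnf220 (1.69-fold and 1.64-fold) and Tshb (2.90-fold and 3.95-fold). In sham, 14 of 35 Cyp2j12 fragments and 96 of 502 Rnf220 fragments came from 1 nucleus in each case. Ratios without these nuclei were not computed. Precursor genes were near 1, with Pdgfra at 0.694 and 0.889 and Cspg4 at 1.07 and 1.41. The 6 listed astrocyte, myeloid, vascular, glutamatergic, GABAergic and precursor marker sets had no member past 2-fold in both libraries, of 12, 9, 13, 8, 8 and 9 genes with enough fragments. Their summed levels lay between 0.814 and 1.12 times those of other nuclei for the first 5 sets. Still, 84 of 291 sham (28.9%) and 67 of 239 stroke (28.0%) myelin-gated nuclei passed the same measure on at least 1 of these 5 cell type lists, as did 29.1% and 33.2% of other nuclei. No doublet caller was run.

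The nuclei differed among themselves in how many of the 9 loci carried fragments, a division that rests on the loci used for the gate and was made after the data had been seen. A single locus supplied all marker fragments in 76 sham (26.1%, 21.2% to 31.6%) and 45 stroke nuclei (18.8%, 14.1% to 24.4%), and it was Mbp in 70 and 43 of these. There were 165 and 110 nuclei with 2 or 3 loci. Nuclei with 4 or more loci numbered 50 in sham (17.2%, 13.0% to 22.0%) and 84 in stroke (35.1%, 29.1% to 41.6%), a description of 1 library each. The median depth was 9965 and 10582 fragments with 1 locus and 13881 and 13028 with 4 or more, while marker fragments had medians of 11 and 11 against 13.5 and 13.

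Genes outside the gate followed the number of loci. In nuclei with 4 or more loci, 20 of 36 myelin genes and 9 of 14 lineage factors were at least 2-fold over other nuclei in both libraries, beside 174 of 12138 of all genes (1.43%). In nuclei with 1 locus, 0 of 17 and 0 of 8 were, beside 18 of 9942 of all genes (0.181%). The list medians were 2.19 in sham and 2.64 in stroke for the myelin genes of the first class and 0.824 and 0.846 for those of the second. The summed level of the 40 myelin genes was 2541.3 CPM in sham and 2629.9 in stroke with 4 or more loci, 1279.4 and 1511.4 with 2 or 3, 1156.1 and 1077.2 with 1, and 1227.3 and 1283.1 in other nuclei. Relative to other nuclei this was 2.07 in sham and 2.05 in stroke with 4 or more loci, and 0.942 and 0.840 with 1 locus. Mal shows this at a single gene, at 32.6 and 39.7 CPM with 4 or more loci, against 1.19 and 4.18 with 1 locus and 4.56 and 6.71 in other nuclei. Ugt8a stood at 55.2 and 69.0 CPM against 4.75 and 8.35, although 1 stroke nucleus supplied 22 of its 73 fragments in the first class. Sox10 stood at 63.7 and 57.6 CPM with 4 or more loci, and with 1 locus at 30.9 in sham and 6.26 in stroke.

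The same held nucleus by nucleus. The measure of the gate, applied to the 40 myelin genes outside it, was passed by 33 of 50 sham (66.0%, 51.2% to 78.8%) and 49 of 84 stroke nuclei (58.3%, 47.1% to 69.0%) with 4 or more loci. With 1 locus it was passed by 5 of 76 (6.58%) and 1 of 45 (2.22%), and among other nuclei by 5.48% and 5.84%. Lineage factors were past it in 48.0% and 45.2% of nuclei with 4 or more loci and in 2.63% and 4.44% with 1 locus. At least 1 other cell type list was past it in 35.5% and 24.4% of nuclei with 1 locus and in 7 of 50 and 21 of 84 with 4 or more, beside 29.1% and 33.2% of other nuclei. With 2 or 3 loci, the largest class, the myelin list was past it in 15 of 165 sham (9.09%, 5.18% to 14.6%) and 21 of 110 stroke nuclei (19.1%, 12.2% to 27.7%), the factors in 10.3% and 13.6% beside 8.02% and 9.76% of other nuclei, and at least 1 other cell type list in 30.3% and 31.8%. So, with 4 or more loci, 66.0% of sham and 58.3% of stroke nuclei were past the measure on the myelin list that the rule did not use. On the lineage factors 48.0% and 45.2% were. With 1 locus the intervals of neither list lay above other nuclei. These lists were chosen with earlier results of these data known, and the classes were set after the data had been seen. The shares are therefore a description and no independent support for the oligodendrocyte label. With 2 or 3 loci the sham intervals reach the share of other nuclei, and the stroke interval of the myelin list lies above it. Neuronal lists were lowest in the first class, with glutamatergic markers at 0.800 and 0.697 and GABAergic markers at 0.645 and 0.796 times other nuclei, against 1.01 and 1.13 and then 1.57 and 1.10 with 1 locus. Precursor genes were at 1.16 and 1.02 times other nuclei with 4 or more loci and 0.912 and 1.01 with 1.

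**Figure D3:**
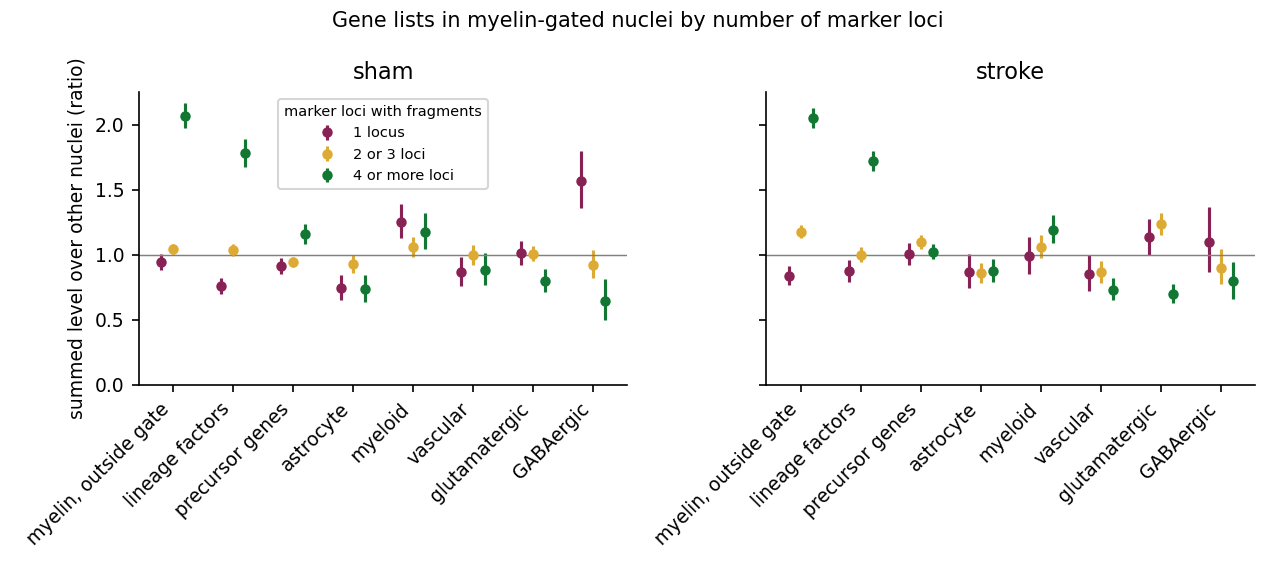
Summed level of each gene list relative to other nuclei of the same library (y axis, ratio with 95% counting interval) in myelin-gated nuclei with 1 (purple), 2 or 3 (yellow) and 4 or more (green) marker loci, sham left and stroke right. The myelin list outside the gate is at 2.07 and 2.05 with 4 or more loci and at 0.942 and 0.840 with 1 locus.

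Fragments around the leading locus, the marker locus with the largest excess over its expected number in a nucleus, also differed between these classes beyond the windows of the gate. At 20 to 50 kb from it, nuclei with 1 locus had 3.87 times (3.12 to 4.74) the fragments of other nuclei in sham and 3.14 times (2.25 to 4.25) in stroke. At 2000 to 5000 kb the excess was still 1.40-fold (1.35 to 1.46) and 1.52-fold (1.45 to 1.60). Nuclei with 2 or 3 loci had a like excess, 3.63-fold (3.26 to 4.03) and 2.95-fold (2.48 to 3.48) at 20 to 50 kb, 4.55-fold and 3.85-fold at 50 to 100 kb, where 1 locus gave 3.15 and 2.31, and 1.34-fold and 1.42-fold at the far distance. With 4 or more loci it was 2.1-fold and 1.62-fold nearby and 1.05-fold (1.0 to 1.10) and 1.03-fold (0.994 to 1.07) at the far distance. In sham this class lay below 2 or 3 loci at 50 to 100 kb (1.56 beside 4.55), 100 to 200 kb (1.57 beside 2.70) and 200 to 500 kb (1.15 beside 2.01). It was close to 2 or 3 loci further out, with 1.48 beside 1.49 at 500 to 1000 kb and 1.37 beside 1.44 at 1000 to 2000 kb. In stroke it had 0.942 beside 1.58 and 1.07 beside 1.66 there. The share of a nucleus's fragments on chromosome 18, which holds Mbp, had a median of 3.8% and 3.95% with 1 locus, 3.5% and 3.29% with 4 or more and 3.01% and 3.18% in other nuclei. It exceeded 1.3 times the library's share in 40.8% and 35.6% of nuclei with 1 locus, 10 of 50 and 6 of 84 with 4 or more, and 13.6% and 11.5% of other nuclei. Uneven chromosome shares were general, with a spread over nuclei of 5.84 to 8.41 times the binomial spread in sham and 5.17 to 7.45 times in stroke, depending on the chromosome. With the expected number taken chromosome by chromosome, an alternative added after the data had been seen, 288 sham (4.84%) and 239 stroke nuclei (5.46%) met the gate, of which 256 and 210 were in the gate as used, and 4 of 55 listed oligodendrocyte genes were past 2-fold in both libraries in place of 6 of 55. Without nuclei high in chromosome 18, 4.29% of sham and 5.08% of stroke nuclei were gated.

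**Figure D4:**
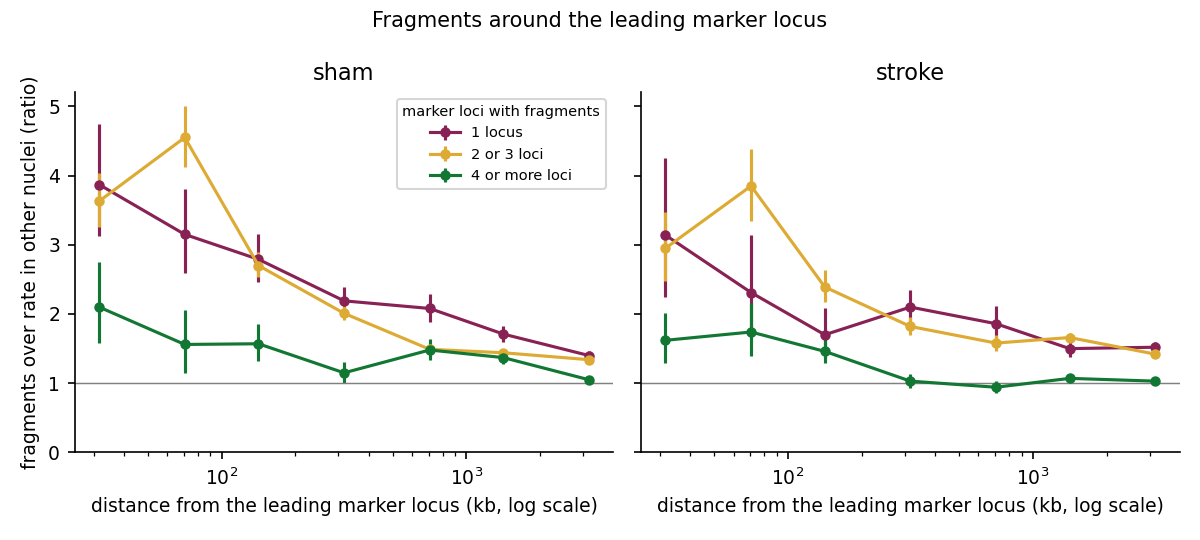
Fragments at increasing distance (kb, log scale) from the leading locus of each nucleus, the marker locus with the largest excess over its expected number. Values are relative to the rate of other nuclei (ratio with 95% Poisson interval), for nuclei with 1 (purple), 2 or 3 (yellow) and 4 or more (green) loci. With 1 locus the ratio is 3.87 in sham and 3.14 in stroke at 20 to 50 kb and stays at 1.40 and 1.52 beyond 2000 kb, with 1.34 and 1.42 there for 2 or 3 loci.

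In the whole gate, injury-associated genes and some myelin genes stood at higher levels in stroke than in sham. With at least 30 fragments over both libraries, 321 of 16115 genes were at least 2-fold higher in stroke (1.99%) and 173 at least 2-fold lower (1.07%), and the median ratio was 0.976. Of the injury-associated list 6 of 17 were higher and 0 lower, and all 20 of its genes together stood at 305.0 CPM in sham and 463.5 in stroke (1.52-fold, 1.40 to 1.65). The gene lists were chosen with earlier results of these data known, so this count and sum, here and below, are a description and no independent support. Of the myelin genes outside the gate 6 of 39 were higher, Pllp, Cmtm5, Gpr37, Car2, Trf and Il33, the 40 together standing at 1.24-fold (1.20 to 1.29) beside 1.05 in other nuclei, and of the lineage factors 2 of 16, Olig2 and Zfp488. Whole-gate values mix the classes, since nuclei with 4 or more loci were 17.2% of the gate in sham and 35.1% in stroke. Within that class the 40 myelin genes together stood at 2541.3 CPM in sham and 2629.9 in stroke (1.03-fold, 0.975 to 1.10), beside 1.05 in other nuclei, with 3 of 35 past 2-fold higher beside 4.02% of all genes, and the 16 factors at 1525.6 and 1702.3 (1.12-fold, 1.03 to 1.20), beside 1.16 (1.14 to 1.17) in other nuclei, with 0 of 14. Olig2, the basic helix-loop-helix factor of the lineage, was 2.96-fold (1.66 to 5.48) higher in the whole gate and stood at 18.4 CPM in sham and 29.3 in stroke with 4 or more loci (1.59-fold, 0.808 to 3.31).

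In nuclei with 4 or more loci, 470 of 11684 genes were at least 2-fold higher (4.02%) and 465 at least 2-fold lower (3.98%) in stroke. All 20 injury-associated genes together stood at 334.3 CPM in sham and 552.6 in stroke, 1.65-fold (1.42 to 1.93), with 16 of 20 at a higher level in stroke. In other nuclei the sum was 1.26-fold (1.24 to 1.28), with 18 of 20 higher. The genes past 2-fold, named below, carried most of the rise in this class, and a sum without them was not computed. The sum over all 20 was 1.34-fold (1.19 to 1.5) with 2 or 3 loci and 1.5-fold (1.22 to 1.84) with 1 locus, so its intervals overlapped in the 3 classes. Past the minimum of 30 fragments were 9 of them and past 2-fold 6, but Serpina3n, C4b, Tnfrsf1a, Bcl3 and Socs3 had at most 6 sham fragments each and reached the minimum through stroke, so that count is no support for the list and these genes are examples only. Serpina3n (chr12:104406729-104414329), a secreted serine protease inhibitor, stood at 5.67 CPM in sham (4 fragments in 3 nuclei) and 28.3 in stroke (30 fragments in 21 nuclei), 5.00-fold (1.76 to 19.5), where other nuclei had 5.56 and 10.7. C4b, a complement component, stood at 7.08 and 25.5 CPM (5 and 27 fragments, 3.6-fold, 1.37 to 12), with reads that may be shared with its near-identical copy C4a. Socs3, the feedback inhibitor of cytokine receptors, stood at 8.5 CPM in sham (6 fragments in 6 nuclei) and 47.2 in stroke (50 in 35 nuclei), 5.56-fold (2.38 to 15.9), beside 16.4 and 27.3 in other nuclei. Bcl3, a nuclear partner of NF-kB, stood at 7.08 and 53.8 CPM (5 and 57 fragments, 7.60-fold, 3.07 to 24.3), beside 10.5 and 27.3 in other nuclei. In each of these 4 genes the fragments were spread over nuclei, with at most 4 from any one. Tnfrsf1a, a receptor of tumour necrosis factor, rested on 2 sham fragments against 34 in stroke (11.3-fold, 2.91 to 97.4), and Cdkn1a, a cell cycle inhibitor, stood at 18.4 and 50.1 CPM (2.72-fold, 1.46 to 5.44), both singled out after their values were seen. The 6 antigen-presentation genes of the list, B2m, H2-D1, H2-K1, Psmb8, Psmb9 and Tap1, had 2 to 16 fragments per library in this class, with ratios from 0.370 (Psmb8) to 2.0 (H2-D1), and in the whole gate ratios from 0.941 (H2-D1) to 1.48 (H2-K1). The intervals of all 6 include 1 in both sets of nuclei.

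Nucleus by nucleus, the injury-associated list was past the measure of the gate in 1 of 50 sham (2.00%, 0.0506% to 10.6%) and 16 of 84 stroke nuclei (19%, 11.3% to 29.1%) with 4 or more loci. In other nuclei it was past in 3.32% and 7.56%, and with 1 locus in 3 of 76 and 3 of 45. Whether the stroke ratio differed between the classes was not tested. Astrocytes open several of the same genes after injury, and here astrocyte-gated nuclei stood at 3.92 and 20.7 CPM for Serpina3n and 7.64 and 81.6 for Bcl3. The astrocyte list summed to 269.1 CPM in sham and 381.6 in stroke with 4 or more loci, below the 365.9 and 435.2 of other nuclei, and 2 of 6 of its genes were past 2-fold, Gli3 at 34.0 and 83.1 CPM and Gfap at 8.5 and 24.6, which reached the minimum through stroke with 6 and 26 fragments, while Aqp4 had 2 and 14 fragments. It was past the measure in 0 of 50 (upper bound 7.11%) and 8 of 84 nuclei. Without any nucleus past another cell type list, the ratios were 4.69 for Serpina3n, 7.25 for C4b, 5.29 for Socs3, 7.47 for Bcl3, 8.53 for Tnfrsf1a and 2.13 for Cdkn1a. The myeloid list summed to 410.8 and 479.9 CPM, above the 349.4 and 401.6 of other nuclei, and the vascular list to 293.2 and 273.9, below their 332.2 and 373.8. The part of these lists in the result was not tested.

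Single genes of other lists stood apart in the same class, where the lists of mature subtype, stress and p53, and hypoxia genes as wholes stood at 1.0 (0.919 to 1.09), 1.04 (0.885 to 1.22) and 0.927 (0.808 to 1.07). The counts of genes past 2-fold that follow are to be read beside the 4.02% higher and 3.98% lower of all genes. Klk6, a secreted protease of mature oligodendrocytes, stood at 4.25 CPM in sham (3 fragments) and 20.8 in stroke (22 fragments in 18 nuclei), 4.89-fold (1.47 to 25.5), under the minimum of 30 fragments and singled out after its values were seen, and at 1.44 and 1.37 in astrocyte-gated nuclei. Gpr37, a receptor that restrains myelination, stood at 17.0 and 55.7 CPM (3.28-fold, 1.74 to 6.70). Trf, the transferrin made by oligodendrocytes, stood at 41.1 and 90.7 CPM (2.21-fold, 1.44 to 3.47), and Steap3, which reduces iron for uptake, at 28.3 and 60.5 (2.13-fold, 1.27 to 3.72), 2 of the 5 iron genes with enough fragments. All 8 iron genes together stood at 1.34-fold (1.11 to 1.63), beside 1.06 in other nuclei, 1.22 with 2 or 3 loci and 1.04 with 1. Their sum went from 233.7 to 313.6 CPM, a rise that Trf and Steap3 account for, so it is no result for the rest of the list. Trf and Steap3 each stood at 1.34-fold in other nuclei. The iron list was past the measure in 1 of 50 sham and 15 of 84 stroke nuclei, beside 3.55% and 3.33% of other nuclei. Of 8 glucocorticoid response genes 2 were past 2-fold, Plin4, a lipid droplet protein, at 17.0 and 47.2 CPM (2.78-fold, 1.46 to 5.73) and Fkbp5, a chaperone of the glucocorticoid receptor, at 70.8 and 142.6 (2.01-fold, 1.45 to 2.83), with 31 of the 151 stroke fragments of Fkbp5 in 1 nucleus, and all 10 together were at 1.3-fold (1.16 to 1.46), beside 1.02 in other nuclei, 1.02 with 2 or 3 loci and 1.01 with 1. Apod, a lipid carrier, stood at 22.7 and 64.2 CPM (2.83-fold, 1.63 to 5.24) and Hopx at 11.3 and 27.4 (2.42-fold, 1.08 to 6.12). All cholesterol synthesis genes together stood at 0.992 (0.894 to 1.10), with 1 of 18 higher (Pmvk), immediate early genes at 1.06 (0.928 to 1.20), with 1 of 13 higher (Maff) and 1 lower (Fosb), and heat shock genes at 1.19 (0.999 to 1.43), with 1 of 7 higher (Hmox1). Of the hypoxia genes 1 of 11 was higher (Pgk1) and 1 lower (Aldoa), and of the stress and p53 genes 0 of 9. Maff, Pmvk, Pgk1 and Hmox1 had 6 to 9 sham fragments and reached the minimum through stroke, so none of the counts in this paragraph is support for a list.

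The summed level of the genes of committed and newly formed oligodendrocytes was lower in stroke in this class, but not in the whole gate. All 12 together stood at 1103.5 CPM in sham and 940.9 in stroke (0.853, 0.776 to 0.938), with 4 of 12 at a higher level in stroke. In other nuclei they stood at 1.10-fold, with 9 of 12 higher. With 2 or 3 loci they stood the other way, at 1.12-fold (1.03 to 1.22) with 10 of 12 higher, with 1 locus at 0.890 (0.775 to 1.02), and in the whole gate at 1.06 (0.999 to 1.12). Of the 8 with enough fragments 2 were past 2-fold lower, beside 3.98% of all genes, and since Mycl reached the minimum mainly through sham this count is no support for the list. Tmem163, a zinc transporter, stood at 175.7 CPM in sham and 86.9 in stroke (0.495, 0.374 to 0.653), and Mycl, a Myc family factor, at 32.6 and 10.4 (0.319, 0.140 to 0.681). Tmem163 alone made up a large part of the fall in the sum of all 12, and a sum without it was not computed. Gpr17 stood at 39.7 and 20.8 CPM (0.524, 0.286 to 0.95). In sham, 19 of the 124 Tmem163 fragments, 8 of 23 for Mycl and 7 of 28 for Gpr17 came from a single nucleus. The list was past the measure in 18 of 50 sham (36.0%, 22.9% to 50.8%) and 8 of 84 stroke nuclei (9.52%, 4.20% to 17.9%). With 2 or 3 loci it was past in 6.67% and 6.36%, with 1 locus in 9.21% and 6.67%, and in other nuclei in 5.76% and 6.09%. Precursor genes were past it in 6 of 50 and 6 of 84, and all 12 of them together stood at 0.895 (0.821 to 0.975) in this class, an interval that overlaps that of the committed list. Opalin, a marker of the gate and a membrane protein of mature oligodendrocytes, stood at 94.9 and 53.8 CPM, and Mobp, also of the gate, at 130.3 and 244.7.

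**Figure D5:**
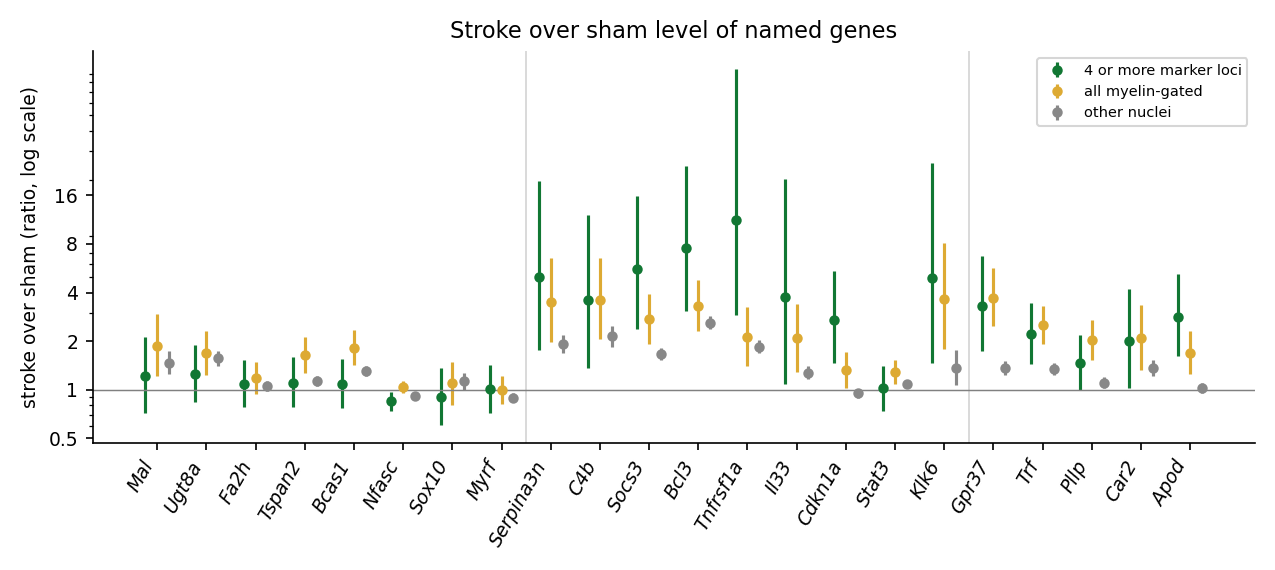
Stroke over sham ratio of the level (log scale) of myelin and lineage genes (left), injury-associated genes and Klk6 (middle) and further oligodendrocyte genes (right) in nuclei with 4 or more loci (green), all myelin-gated (yellow) and other nuclei (grey), with exact 95% intervals for counting error. Bcas1, Sox10 and Myrf lie between 0.904 and 1.09 with 4 or more loci, and Serpina3n, Socs3 and Bcl3 between 5.00 and 7.60.

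Over all genes of the whole gate, the genes ranked highest in stroke over sham all stood below 10 CPM in sham. They were Muc16 (6.86-fold, 3.56 to 14.5), Pon3 (6.13-fold), Zfp951 (6.76-fold), Rrh (5.53-fold), Mfsd7a (5.53-fold), Gpr37 (3.71-fold, 2.49 to 5.66), Abi3 (4.04-fold), Plekhf1 (3.58-fold, 2.36 to 5.54), Plin2 (4.55-fold) and Gngt2 (4.81-fold). Muc16, Pon3, Zfp951, Rrh, Mfsd7a, Plin2 and Gngt2 had 5 to 12 sham fragments and reached the minimum of 30 through stroke, so their ranks are a description only. Muc16, a mucin, had 22 of its 58 stroke fragments in 1 nucleus and Pon3, a lactonase, 13 of 33, whereas Gpr37 had 97 fragments in 68 nuclei with at most 5 in any one. Plekhf1, a regulator of endosomes, stood at 21.2 and 51.0 CPM with 4 or more loci. Abi3 and Gngt2, known from microglia, overlap on chromosome 11 and share fragments, so they are no separate observations, and were 1.89-fold (0.711 to 5.85) and 1.20-fold (0.361 to 4.56) there, with intervals that include 1. Among those at the other end were Grb7 (0.233, 0.115 to 0.434), Mylk4 (0.312), Ccdc22 (0.274), Il2rb (0.200), Rims3 (0.387), Reep2 (0.353), Camk2b (0.488, 0.432 to 0.550), Creb3l3 (0.315) and Cacna1f (0.376). Grb7, Ccdc22, Il2rb and Creb3l3 had 12, 16, 6 and 16 stroke fragments and reached the minimum through sham, so their ranks are a description only. For Creb3l3, 15 of 66 sham fragments came from 1 nucleus. The windows of Ccdc22 and Cacna1f overlap upstream of both genes and share fragments too. Rims3, Reep2 and Camk2b belong to synapses and neurons, and all 3 were also lower in the other nuclei, at 0.770, 0.814 and 0.804. Mylk4 had 28 of its 125 sham fragments in 1 nucleus, and it stood the other way, at 1.31, when each nucleus was thinned to 5000 fragments. Il2rb, Creb3l3 and Pon3 then stood at 0.874, 0.834 and 1.97. Of the 321 higher and 173 lower genes, 37 and 14 were past 2-fold again in the thinned nuclei. Only 11628 genes met the minimum of 30 fragments after thinning, beside 16115 before. How many of the 321 and 173 were among them was not counted. The gate was also taken anew, and 155 of its 198 sham and 117 of its 151 stroke nuclei were in the gate as used.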

How the data were processed

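Nuclei of 1 sham and 1 stroke library, each of 4 pooled brains, were profiled by scATAC-seq (10x Genomics). Per the labels, the authors processed reads with Cell Ranger ATAC 2.1.0 and a Cell Ranger ARC mm10 reference, and deposited a fragment list per library, with ends shifted to the Tn5 cut sites, and unnormalized counts for each barcode (read pairs, fragments in peaks). Nothing in these counts was pooled across libraries. The blacklist count was 0 for every called barcode, so that part of the study's filter could not act.

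From the deposited counts and fragments, gene levels were summed over GENCODE M21 gene bodies plus 2 kb upstream (21910 protein-coding genes), and divided by all fragments of the same nuclei. A total of 4 genes overlapping the marker windows were left out. Cells of 1 library are not replicates, so no p-value was computed. Intervals are exact (Poisson for sums, Clopper-Pearson for shares, conditional binomial for ratios), but those of bin ratios treat both ends of a fragment as independent and are too narrow. Scripts used Python 3.11.15, numpy 2.4.6, pandas 2.3.3, scipy 1.17.1 and matplotlib 3.10.9, and were tested on simulated data. Sequences were read from the GRCm38 reference, and no fragment lay past a chromosome's end on any of the 21 chromosomes. The nuclei and gene lists were chosen with earlier results of these data known. Named genes are the 9 markers, the 10 ranked highest or lowest by the bound of the interval nearest 1, and, of each list, the members past 2-fold or at its ends, with shorter lists given by their counts. Other filters, gates, scalings, windows and minimums were tried as alternatives. The scRNA-seq data were not used here, and some genes that the naming rule covers are not reported here.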

Additional observations from a re-analysis of the deposited data

How the results depend on the processing

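No paired analysis was possible because sham and stroke were 1 library each, so none could be left out either. The share of myelin-gated nuclei moved with the gate, in sham and then in stroke: 2.22% and 2.60% with a distance of at least 5, 3.41% and 3.72% with at least 10 marker fragments, 3.18% and 3.47% without Mbp (95 and 102 of these nuclei were in the gate as used), 1.26% and 1.85% with start-site windows, 3.79% and 3.93% when thinned to 5000 fragments, and 3.48% and 3.93% without nuclei past another cell type list. Alternatives chosen after seeing the data gave 0.840% and 1.92% with 4 or more loci and 4.29% in sham without nuclei high in chromosome 18. Over every called barcode it was 5.19% and 3.66%, the one setting tried in which stroke was below sham. Listed oligodendrocyte genes past 2-fold were 6 of 55, and 29 of 50 with 4 or more loci. Genes at least 2-fold higher in stroke numbered 321, and 149 with a minimum of 60 fragments. Those lower numbered 173, and 94 with that minimum, 411 with a distance of at least 5, 370 when thinned, 274 without nuclei past another list and, after seeing the data, 305 without Mbp, 465 with 4 or more loci and 493 with 4 or more loci and no nucleus past another list. Open bins numbered 6182 with 28.9% at least 2-fold in stroke, and 900 (36.4%) at 8-fold, 229 (60.3%) with 20 cut sites, 2770 (34.4%) with a distance of at least 5 and, after seeing the data, 200 (67.0%) with 10 sham nuclei. Thinning, which also changed the nuclei in the gate, turned Mylk4 to 1.31. Of other named genes in the whole gate it moved Il2rb from 0.200 to 0.874, Creb3l3 from 0.315 to 0.834, Pon3 from 6.13 to 1.97 and Serpina3n from 3.52 to 1.69, each out of the 2-fold range. Trf and Cmtm5 moved further from 1, from 2.51 to 6.88 and from 2.24 to 7.21. Il2rb was also at 0.650 with promoter windows. The cause of these shifts was not tested. With a median of 12 marker fragments per nucleus, depth limits any gate, and with 50 sham nuclei in the 4 or more loci class a gene under about 10 fragments gives wide intervals.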
